A study of Saccharomyces cerevisiae with 12 samples.

Results

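RGI1 (YER067W) and RGI2 (YIL057C) are a pair of duplicated budding yeast genes, here followed across 6 groups of Affymetrix arrays. They are 2 of 5449 budding yeast genes measured, and each has 1 probe set of its own, which no other transcript shares by its name. The pair was found by gene symbol and systematic name, and it was chosen by its measured levels in an earlier look at the same arrays. For that reason the values of RGI1 and RGI2 are given as a description, without a test.

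Rgi1 and Rgi2 are small, related proteins of unknown biochemical function, and their genes are kept from the ancient duplication of the yeast genome. They are named for respiratory growth, since both are known to be induced when yeast lives by respiration, and cells without them have altered energy metabolism on carbon sources that must be respired. RGI2 is also known as a gene that is repressed when glucose is plentiful and induced when carbon is limiting. Galactose lies between these states, because yeast both ferments and respires it and represses respiratory genes less strongly than on glucose.

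The 12 arrays held 6 groups of 2, named REF, E62A, E62B, E62C, PGM2 and SO16. The labels give the haploid laboratory strain CEN.PK113-7D for all of them, grown in a minimal medium with galactose in fermenters held at pH 5.0 and sampled in the middle of exponential growth. REF is the reference strain. E62A, E62B and E62C carry the names of 3 mutants evolved on galactose, in the study the SO16 strain was engineered without the genes GAL80, MIG1 and LAP3 (GAL6), and the PGM2 strain to overexpress the phosphoglucomutase gene of that name. Whether the arrays of 1 group stand for separate cultures is not in the labels. Errors and adjusted p-values therefore measure how far arrays differ, and that spread may be technical. In bulk RNA of a culture, fewer cells that express a gene and less RNA per cell cannot be told apart.

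The labels were checked on the genes they point to. On the SO16 arrays GAL80 lay at 6.29 and 6.04, LAP3 at 5.72 and 5.87 and MIG1 at 5.84 and 5.62, against at least 9.02 for each of the 3 genes on every other array. The gene PGM2 had levels of 12.14 and 12.11 in REF. Under the label PGM2 it was lower, at 10.49 and 10.87, and its highest levels, 13.43 and 13.19, were found under the label E62C. This goes against the label PGM2, so groups are named below as arrays labelled with a strain name. Whether the labels PGM2 and E62C were exchanged was not tested, so values under either label may belong to another strain. The second arrays of E62C and SO16 had weaker hybridisation controls (means of 8.84 to 8.87) than the other 10 (10.06 to 11.6) and more ribosomal RNA signal (at least 10.998 against at most 9.85). Results that rest on them are also given without both.

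RGI1 was among the more strongly hybridising genes and RGI2 among the weaker ones. Levels are log2 values from RMA, the robust multi-array average method. The RGI1 probe set exceeded those of 83.5% to 94.6% of the genes of the same array, and the RGI2 probe set exceeded 4.77% to 21.1%. Levels of different probe sets cannot be set against each other, so only the changes of each gene are compared. As a background, 1746 probe sets of fission yeast share the array. Their means reached 6.0 at the 95th percentile, and at most 0.229% of them lay above RGI2 on any array. RGI2 was thus above background on all 12 arrays, but near it on the REF, E62A and E62B arrays, and RMA is known to compress differences at low signal.

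RGI1 lay at 12.31 and 12.26 on the REF arrays. It was lower on the arrays labelled E62A, at 11.23 and 11.21, on those labelled E62C, at 11.56 and 11.54, and on those labelled PGM2, at 11.05 and 11.16. The arrays labelled SO16 came closest to REF from below, at 12.02 and 12.06, and those labelled E62B lay just above it, at 12.48 and 12.44. From lowest to highest the order of the means was PGM2, E62A, E62C, SO16, REF and E62B. No group overlapped with its neighbour in this order, but missing overlap is common in groups this small. Against REF it was seen in 30.5% (E62B) to 61.6% (E62A) of all genes. The share was not computed for neighbours other than REF, so nothing is read from the missing overlap here. The narrowest step, between PGM2 and E62A, was 0.12 ± 0.06 (SE), so these groups were not clearly apart. The residual standard deviation of RGI1 over the replicates was 0.041.

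RGI2 followed another order. It lay at 6.803 and 6.88 on the REF arrays and slightly below on those labelled E62A, at 6.49 and 6.64, and E62B, at 6.644 and 6.66. It was high on the arrays labelled E62C, at 8.31 and 8.03, and SO16, at 8.18 and 8.13, and in between on those labelled PGM2, at 7.34 and 7.72. E62C and SO16 overlapped, with means 0.02 apart, so these highest groups did not differ beyond their spread. E62A and E62B did not overlap but nearly touched, and their means differed by 0.09 ± 0.12, less than the residual standard deviation of 0.146. RGI2 varied more between replicates than RGI1, most of all on the arrays labelled PGM2 (SD 0.27, n = 2) and E62C (SD 0.20, n = 2).

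**Figure D1:**
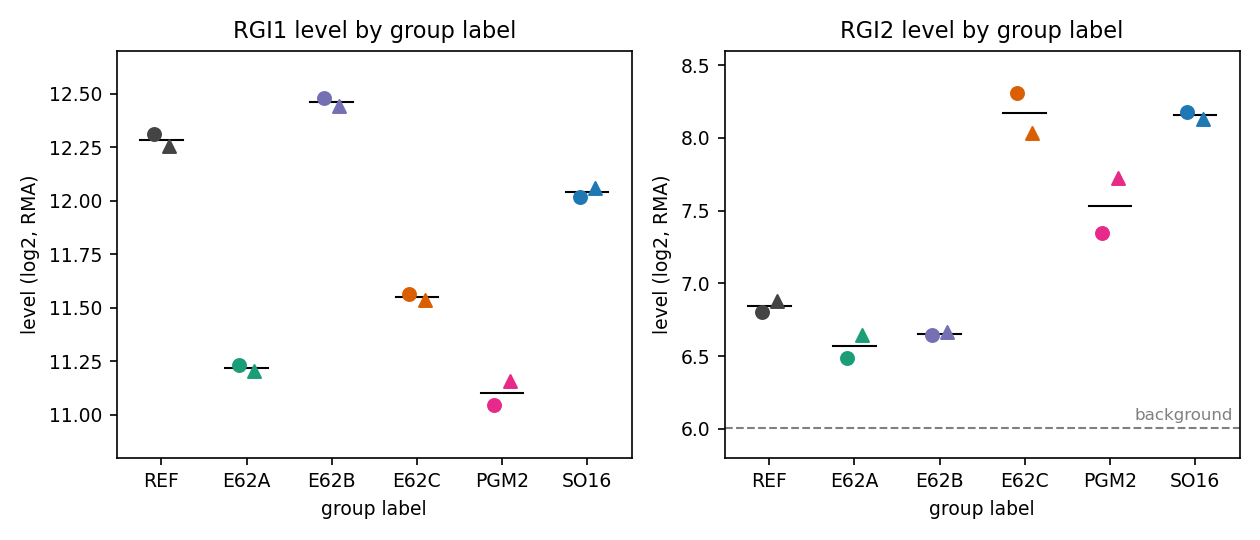
Levels of RGI1 (left) and RGI2 (right) on the log2 RMA scale for each group label. Circles are replicate 1, triangles replicate 2 and bars the mean of 2 arrays, and the dashed line in the right panel is the background level of 6.0. RGI1 is lowest on the arrays labelled PGM2 and E62A, while RGI2 is highest on those labelled E62C and SO16.

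As changes from REF, RGI1 stood at -1.07 ± 0.06 on the arrays labelled E62A and -1.18 ± 0.06 on those labelled PGM2, which is 47.8% and 44.1% of the REF signal. On the arrays labelled E62C the difference was -0.74 ± 0.06 (60.1% of REF), and on those labelled SO16 it was -0.25 ± 0.06 (84.3%). Errors are standard errors of a limma fit over all 12 arrays, with 2 arrays in each group. Among all genes, RGI1 had the 44th lowest change for E62A, the 39th for PGM2 and the 68th for E62C, but only the 427th for SO16. The arrays labelled E62B differed from REF by 0.17 ± 0.06 in the opposite direction.

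RGI2 stood 1.33 ± 0.12 above REF on the arrays labelled E62C and 1.31 ± 0.12 above it on those labelled SO16, or 2.51-fold and 2.48-fold. These were the 6th and the 5th highest changes of all genes in their comparisons. On the arrays labelled PGM2 the difference was 0.69 ± 0.12 (1.62-fold), and it was 0.50 without replicate 2 of that group and 0.88 without replicate 1. On the arrays labelled E62A and E62B RGI2 was at -0.28 ± 0.12 and -0.19 ± 0.12. The value for E62A shrank to -0.15 when the budding yeast genes alone were normalized again by quantiles, and to -0.20 without E62A replicate 1.

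In all 5 comparisons the arrays of RGI1 and of RGI2 did not overlap with those of REF. This is common in groups of 2. The share of all genes without overlap was 61.6% for E62A, 30.5% for E62B, 48.8% for E62C, 55.6% for PGM2 and 40.7% for SO16. Nothing is therefore read from the missing overlap alone. For E62B, RGI1 had the 96th highest and RGI2 the 92nd lowest change of all genes.

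The changes were about as large without the 2 arrays with weak hybridisation controls. Without both, RGI2 stood 1.47 ± 0.13 above REF on the remaining array labelled E62C and 1.34 ± 0.13 on the remaining array labelled SO16, and RGI1 at -0.72 ± 0.07 and -0.27 ± 0.07. These errors assume that the lone array of a group varies like those of the other groups.

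The paralogues thus parted in opposite directions, RGI1 down and RGI2 up, in 3 of the 5 groups. On the arrays labelled E62C, PGM2 and SO16, RGI1 was below REF and RGI2 above it on both arrays of each group. The change of RGI2 minus the change of RGI1 was 2.07 ± 0.13 for E62C (2.19 and 1.94 on the single arrays), 1.87 ± 0.13 for PGM2 (1.74 and 2.01) and 1.56 ± 0.13 for SO16 (1.61 and 1.51). The shape of the split differed. For PGM2 the larger part was the lower RGI1, for SO16 most of it was the higher RGI2, and for E62C RGI2 moved further than RGI1. RGI2 lay near background on the REF arrays, where RMA compresses differences, so these sizes are not directly comparable between the genes.

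The arrays labelled E62A showed a different combination. Both paralogues were below REF, RGI1 by far the more, and the difference between their changes was 0.79 ± 0.13. RGI2 lay near background on the REF and E62A arrays, where RMA compresses differences, so the sizes of the falls are not directly comparable. Whether low signal made the fall of RGI2 smaller was not tested. On the arrays labelled E62B, RGI1 lay above REF (0.17 ± 0.06) and RGI2 below it (-0.19 ± 0.12), the reverse of the split above. The difference between their changes was -0.36 ± 0.13, the only negative value. The REF arrays themselves lay at -0.067 and 0.067 around their mean on this measure.

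Groups can also be set against each other without REF. RGI1 was 0.82 ± 0.06 higher on the arrays labelled SO16 than on those labelled E62A, and RGI2 was 1.59 ± 0.12 higher. Between the arrays labelled E62C and E62A the differences were 0.33 ± 0.06 for RGI1 and 1.61 ± 0.12 for RGI2. SO16 and E62C were alike in RGI2, where they differed by -0.02 ± 0.12, but RGI1 was 0.49 ± 0.06 higher on the SO16 arrays. Under the label PGM2, RGI2 was 0.97 ± 0.12 above E62A and 0.62 ± 0.12 below SO16, while RGI1 was within 0.12 of E62A.

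A list of 23 paralogue pairs of carbon and energy metabolism, both members measured, gives the setting. The second member of a pair is usually the isoform known as the minor or more regulated one, and RGI2 was placed second. The RGI pair was chosen by its levels on these arrays, and the list and its order were written with earlier results known. Its place among the pairs is therefore a description and no support for an unusual split. The difference of changes in the RGI pair was larger in size than in all 23 pairs for E62C, and larger than in all but 2 for SO16, all but 3 for PGM2 and all but 6 for E62A. For each of these 4 groups no pair of the list had a second member that gained as much on the first as RGI2 gained on RGI1, although the nearest pair for E62A, IDP1/IDP2 (isocitrate dehydrogenases) at 0.74, came within the SE of the RGI value. The nearest pairs elsewhere were PGM1/PGM2 at 0.93 for E62C, ADH1/ADH2 at 1.17 for PGM2 and the same pair at 0.44 for SO16. PGM2 was to be overexpressed in an engineered strain and its levels went against the label PGM2. PGM1/PGM2 is therefore a limited comparison under the labels E62C and PGM2, here and in the counts below. The widest splits in the list ran the other way. SOL3/SOL4 (6-phosphogluconolactonases) reached -2.43 ± 0.17 for SO16, and GND1/GND2 (6-phosphogluconate dehydrogenases) -1.66 ± 0.14 in the same group, with the minor isoform lower.

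By limma at an adjusted p under 0.05, 6.97% of all 5449 genes were called lower and 5.56% higher for E62A. The shares were 4.96% and 4.84% for E62C, 6.53% and 7.03% for PGM2, 5.1% and 3.69% for SO16, and 0% in both directions for E62B. A pair with 1 member called higher and the other called lower was seen in 2 of 23 pairs for E62A, 0 for E62B, 1 for E62C, 2 for PGM2 and 4 for SO16. Without REF replicate 1 these counts were 0 for E62A, 1 for E62C, 1 for PGM2 and 0 for SO16. Without either E62A array the count for E62A was 0, without REF replicate 2 it was 1, and without either PGM2 array the count for PGM2 was 1. PGM1/PGM2 had opposite calls for E62A, PGM2 and SO16, SOL3/SOL4 for E62A and SO16, and GND1/GND2 for SO16. In no comparison was a first member called lower and its second member higher. HXK2/HXK1 (hexokinases) had opposite calls on the arrays labelled E62C, PGM2 and SO16, the groups in which RGI1 was below REF and RGI2 above it. Its first member rose and its second fell there, the reverse of the RGI pair. HXK2, the main hexokinase on glucose and a part of glucose repression, rose by 0.62 ± 0.09 (limma adjusted p = 9.3e-04), 0.35 ± 0.09 and 0.46 ± 0.09. HXK1 fell by 0.42 ± 0.07, 0.82 ± 0.07 and 0.58 ± 0.07 in the same groups. The HXK2 call for PGM2 was lost without REF replicate 1 (adjusted p = 0.178), PGM2 replicate 1 (0.0687) or PGM2 replicate 2 (0.118). For SO16 the adjusted p was 0.0794 once REF replicate 1 was left out.

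**Figure D2:**
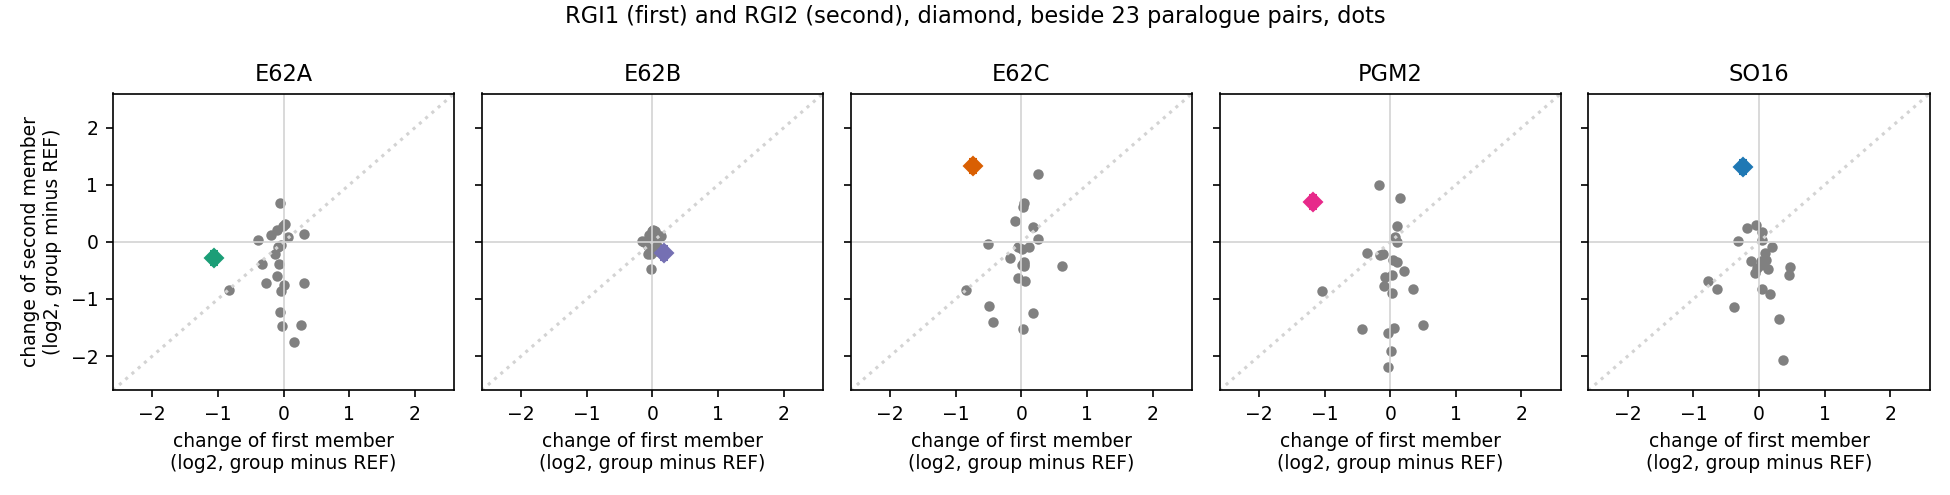
Change of the first member (x axis) against change of the second member (y axis) of each paralogue pair, as log2 difference from REF, with 1 panel for each group label. Grey dots are 23 pairs of carbon and energy metabolism, the diamond is RGI1 and RGI2 with the SE of each, and the dotted line marks equal change. For E62C, PGM2 and SO16 the diamond lies in the upper left, with RGI1 at -0.74, -1.18 and -0.25 and RGI2 at 1.33, 0.69 and 1.31.

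Other genes of respiratory growth moved little. Among 40 genes for subunits of respiratory complexes and of ATP synthase, 5 fell for E62A, 1 for E62C, 3 for PGM2 and 3 for SO16, and none rose. Of all genes, 4.96% to 6.97% were called lower in these groups. The median of the list lay between -0.11 (E62A) and 0.01 (E62B), against 0.00 and 0.02 for all genes. The members that fell most were minor isoforms, CYC7 (cytochrome c isoform of low oxygen) at -1.92 ± 0.16 for PGM2 and -0.87 ± 0.16 for E62A, COX5B (its counterpart in cytochrome oxidase) at -0.77 ± 0.09 for PGM2, and NDE2, an external NADH dehydrogenase, at -0.52 ± 0.10 for PGM2. Calls in this list were fragile. Leaving out any 1 of the REF or E62A arrays left 1 of the 5 calls for E62A, leaving out REF replicate 1 left 0 for E62C and SO16, leaving out E62C replicate 1 left 0 for E62C, and the NDE2 call for PGM2 was lost without REF replicate 2 (adjusted p = 0.0625) or PGM2 replicate 1 (0.0687).

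The tricarboxylic acid cycle gave a like picture. Of 18 measured genes, CIT3, a mitochondrial citrate and methylcitrate synthase, was the 1 called gene in each of 4 groups, where it rose by 0.42 ± 0.06 (E62A), 0.79 ± 0.06 (E62C), 0.78 ± 0.06 (PGM2) and 0.58 ± 0.06 (SO16). A count of 1 in 18 is near the share of all genes called higher there, 3.69% to 7.03%. Without both weakly controlled arrays 1 further gene rose for E62C, and 1 gene fell for E62C and for SO16. RGI2 stood higher than each of the 18 for E62C and SO16, and RGI1 lower than each of them for E62A, E62C, PGM2 and SO16.

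Genes of gluconeogenesis and the glyoxylate cycle, which Cat8 and Adr1 switch on when glucose is gone, rose in 8 of 20 cases for E62A, 9 for E62C, 13 for PGM2 and 4 for SO16, and fell in 1, 1, 1 and 3. Of all genes, 5.56%, 4.84%, 7.03% and 3.69% were called higher in these groups, and 6.97%, 4.96%, 6.53% and 5.1% lower. The list's medians were 0.21, 0.35, 0.49 and 0.06, against 0.004, 0.027, 0.009 and -0.004 for all genes. MLS1, malate synthase, rose by 1.31 ± 0.11 for E62A and 1.14 ± 0.11 for PGM2, and SFC1, a mitochondrial succinate and fumarate carrier, by 1.54 ± 0.13 for PGM2. RGI2 exceeded the changes of all 20 for E62C and SO16 and of 13 for PGM2. For E62A, in contrast, 18 of the 20 stood above RGI2, so RGI2 was below REF in a group in which 8 of these genes rose. Without REF replicate 1 the counts of risen genes were 4 for E62A, 4 for E62C and 8 for PGM2, and without either E62A array the count for E62A was 4.

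The general stress genes of Msn2 and Msn4 fell in 23 of 27 cases for E62A, 24 for E62C, 26 for PGM2 and 24 for SO16, and none rose. Their medians were -0.63, -1.06, -0.997 and -0.78. In the same groups 6.97%, 4.96%, 6.53% and 5.1% of all genes were called lower, and 5.56%, 4.84%, 7.03% and 3.69% higher. On the arrays labelled SO16 RGI1 was nearer to REF than most of the stress genes. There 25 of the 27 had a lower change than RGI1, against 8 of 27 for E62A, 16 for E62C and 13 for PGM2. HSP26, a small heat shock protein, was at -2.73 ± 0.12 for SO16 and -2.70 ± 0.12 for E62A, nearly the same, while RGI1 was at -0.25 ± 0.06 and -1.07 ± 0.06. Genes of glycogen and trehalose fell in 14, 16, 15 and 16 of 21 cases (medians -0.39, -0.53, -0.87 and -0.57), and 2, 1, 1 and 1 rose. GPH1 (glycogen phosphorylase) and GAC1 stand in both lists. Without E62A replicate 1, E62A replicate 2 or REF replicate 2 the reserve count for E62A was 9, and without REF replicate 2 those for E62C and SO16 were 10.

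For E62B, limma called 0% of all genes in either direction, with 97 at an unadjusted p under 0.05. No list had a called member there. Over all genes, fitting these 4 arrays alone called 4 and array weights called 2. Leaving out both weakly controlled arrays called 3, and eBayes with trend and robust variance called 0. List medians in this group were small, from -0.13 (Cat8 and Adr1 targets) to 0.08 (stress). Single genes reached -0.66 in the first of these lists and 0.46 in the second. RGI1 (0.17) and RGI2 (-0.19) changed little too, though by more than 96.1% and 97.0% of all genes there.

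**Figure D3:**
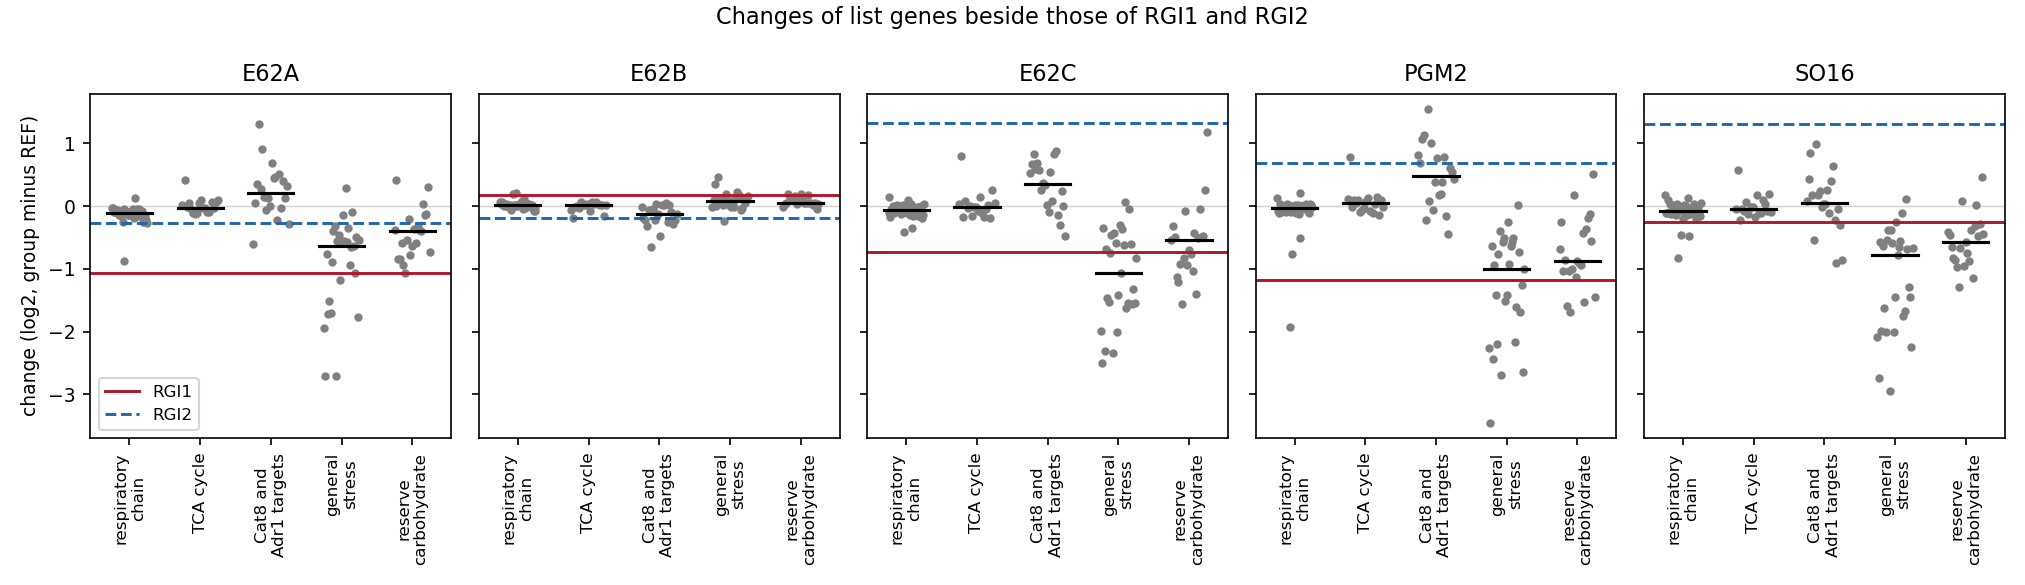
Log2 differences from REF of the genes of 5 lists (grey dots, 1 per gene, with the median as a black bar) for each group label, beside RGI1 (solid red line) and RGI2 (dashed blue line). RGI1 lies inside the range of the stress list in all 5 panels, and RGI2 lies above the whole Cat8 and Adr1 list for E62C and SO16.

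Among 29 regulators of respiratory and glucose-repressed genes, 1 rose and 1 fell for E62A, 1 and 3 for E62C, 2 and 3 for PGM2, and 4 and 4 for SO16, the last including the deleted MIG1. The shares of all genes called higher and lower were 5.56% and 6.97% (E62A), 4.84% and 4.96% (E62C), 7.03% and 6.53% (PGM2), and 3.69% and 5.1% (SO16). USV1, a zinc finger factor tied to growth on non-fermentable carbon, fell in 4 groups, by 0.61 ± 0.09 (E62A), 0.94 ± 0.09 (E62C), 0.96 ± 0.09 (PGM2) and 0.68 ± 0.09 (SO16). ADR1 rose by 0.61 ± 0.09 for PGM2 and 0.57 ± 0.09 for SO16. MTH1, a repressor of hexose transporter genes, rose by 0.53 ± 0.07 for SO16.

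MIG1, the glucose repressor deleted in the SO16 strain, was at -3.52 ± 0.08 there, at -0.02 ± 0.08 for E62C and -0.19 ± 0.08 for PGM2. NRG2, another repressor, rose by 0.50 ± 0.08 for E62A and fell by 0.33 ± 0.08 (E62C), 0.34 ± 0.08 (PGM2) and 0.48 ± 0.08 (SO16), and for E62B it was at 0.01 ± 0.08. Without REF replicate 1 its changes in E62C, PGM2 and SO16 were -0.26, -0.27 and -0.41, and none passed (adjusted p = 0.236, 0.16 and 0.0602). The call for E62C was also lost without E62C replicate 2 (0.155) or both weakly controlled arrays (0.0832), and that for PGM2 without PGM2 replicate 2 (0.145). The remaining calls were CAT8 (0.48 ± 0.09) and STD1 (-0.35 ± 0.07) for SO16, NRG1 (-0.38 ± 0.09) for E62C, HAP2 (-0.36 ± 0.11) for PGM2 and HXK2 as above. Each of CAT8, STD1, NRG1 and HAP2 missed the threshold without REF replicate 1 (adjusted p = 0.0721, 0.0917, 0.0559 and 0.0719), NRG1 also without REF replicate 2 (0.159) or E62C replicate 1 (0.125), and HAP2 without REF replicate 2 (0.276) or PGM2 replicate 1 (0.406). HAP4, the activating subunit of the Hap complex of respiratory genes, passed in none of the 5 comparisons.

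The genes next to RGI1 and RGI2 on their chromosomes did not pass in any comparison. RRT13 and MOT2 flank RGI1, and their changes ran from -0.20 ± 0.11 (RRT13, E62A) to 0.16 ± 0.11 (RRT13, E62C). VHR1, a biotin-related transcription factor on one side of RGI2, ran from -0.24 ± 0.09 (E62A) to 0.04 ± 0.09 (SO16). YIL059C, on the other side, was not measured here.

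Genes with the most similar course were found by the Pearson correlation of log2 levels over the 12 arrays, among 5232 genes with a probe set of their own and a mean above background. The 12 points are 6 groups of 2 arrays that were normalized together, so r is a description of likeness with no p. The genes nearest to RGI1 were HSP30, a stress protein of the plasma membrane (r = 0.959), EGO4 (0.954), ARR1 (0.941), TGL2, a lipase (0.937), GPP2, the stress isoform of glycerol phosphatase (0.936), MFA2, an a-factor gene (0.93), YHR033W (0.924) and TDA1, a protein kinase (0.918). HSP30 moved further than RGI1 except for E62B, with changes of -1.33 (E62A), -1.24 (E62C), -1.59 (PGM2), -0.76 (SO16) and 0.16 (E62B). GPP2 came nearest in size, at -0.72 (E62A), -0.68 (E62C), -0.90 (PGM2), -0.41 (SO16) and 0.08 (E62B). EGO4 reached -2.86 for E62A, while ARR1 and TGL2 moved by no more than 0.26. The opposite course was closest in MLS1 (r = -0.97), PEX21, a peroxisomal import factor (-0.965), YJL213W (-0.948) and ACB1, the acyl-CoA binding protein (-0.939). MLS1 is itself one of the genes of the glyoxylate cycle.

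The genes nearest to RGI2 were others. They were YIG1 (r = 0.979), HXK2 (0.964), ALT2, a relative of alanine transaminase (0.94), FES1, a cofactor of Hsp70 (0.939), MAL33, a maltose activator (0.93), YKR075C (0.923), UMP1, a proteasome assembly factor (0.922) and LPL1, a phospholipase (0.915). YIG1 followed RGI2 with changes of 0.80 (E62C), 0.94 (SO16), 0.63 (PGM2) and -0.21 (E62A). RGI2 spanned a wider range than each of these 8. The lowest values of r were those of VPS73, a member of the sugar transporter family (-0.956), CPR1, a cyclophilin (-0.954), PEP4, the vacuolar proteinase A (-0.95), and YLR297W (-0.941). RGI1 and RGI2 themselves had r = -0.18 (Spearman rho = -0.11) over the same 12 arrays, and no gene stood among the nearest 8 of both.

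**Figure D4:**
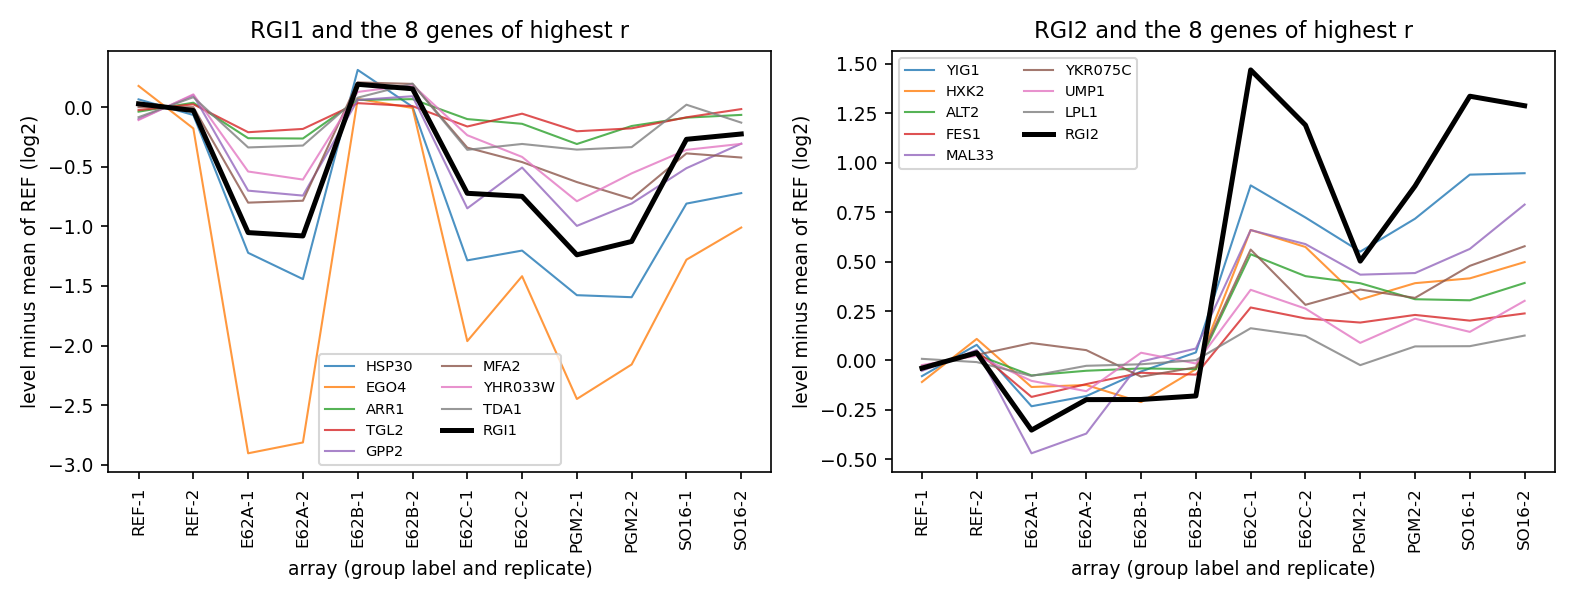
Level minus the mean of the REF arrays (log2) on each of the 12 arrays for RGI1 (left, black) and RGI2 (right, black) and the 8 genes of highest Pearson r with each (coloured). Lines only join the arrays of 1 gene and carry no order. RGI1 and HSP30 are low on the arrays labelled E62A, E62C and PGM2, and RGI2 and YIG1 are high on those labelled E62C, PGM2 and SO16. Other curves are flatter, such as LPL1, at 0.02 for PGM2.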

How the data were processed

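The authors deposited a table of log2 expression values for 10928 probe sets on 12 arrays. Per the labels' protocols, the Affymetrix manual was followed in labelling the RNA. RMA and affy, without versions, are named in the submitters' processing notes. RMA equalises the distributions of the arrays, which would remove a shift of all transcripts, and it compresses differences near the floor. The number of arrays limits the precision.

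Probe sets were named through the platform table and assembly R64 (5498 matched), and each gene kept its probe set of highest mean, giving 5449 genes, 114 of them with a probe set shared between transcripts. limma 3.58.1 in R 4.3.3 fitted 1 mean per group over all 12 arrays (6 residual and 4.97 prior degrees of freedom), with Benjamini-Hochberg adjustment within each comparison with REF and a threshold of 0.05. These comparisons share the REF arrays. For 2 arrays against 2, the smallest p of an exact permutation test is 0.333. The fit was tested on simulated data with independent noise for each gene and array. That setting lacks weak arrays and shared deviations, so it cannot show how reliable the calls are here.

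Members, 6 gene lists, paralogue pairs and alternatives were chosen with earlier results of these data known. Named genes are the members, the 8 highest and 4 lowest by r, neighbours, up to 3 called genes of a list, called regulators, pair members and the genes of the label check. 1 of 24 listed pairs was not measured in full. A planned search for promoter motifs was not run, since no sequences were used here. Same-numbered replicates deviated together in some pairs of groups only (r from -0.35 to 0.54 over 15 pairs, 6 above 0.1), so no pairing was assumed.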

Additional observations from a re-analysis of the deposited data

How the results depend on the processing

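The changes of RGI1 and RGI2 and the difference between them kept their sign under the alternatives that could move them. These were quantile normalization over budding yeast genes, centring on array medians, centring on 5 reference genes (single changes only) and leaving out arrays. The replicate block, fits on the groups of 1 comparison and the mean of probe sets leave these values as they are by construction. Quantile normalization moved the difference between the paralogues for E62A to 0.92. Leaving out 1 array gave -1.24 to -1.13 for RGI1, 0.50 to 0.88 for RGI2 and 1.74 to 2.01 for their difference on the arrays labelled PGM2. With the replicate block the differences were unchanged and the number of genes called was 794 for E62A, 0 for E62B, 632 for E62C, 818 for PGM2 and 535 for SO16, against 683, 0, 534, 739 and 479, so no count moved beyond 1.5 times.

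The number of genes called moved by more than 1.5 times in several settings. With the compared groups alone it was 1113 (E62A), 4 (E62B), 316 (E62C) and 271 (SO16). With array weights it was 1224 (E62A), 2 (E62B) and 253 (SO16). Without both weakly controlled arrays it was 1246 (E62A), 3 (E62B), 1211 (PGM2) and 897 (SO16). Leaving out 1 array gave 302 to 413 for E62A, 250 to 551 for E62C, 358 to 549 for PGM2 and 228 to 536 for SO16. Medians, quantiles, a filter on dim genes and eBayes with trend and robust variance kept every count within 1.5 times. The causes were not tested. Of 720 counts of list genes under the alternatives, 633 lay within 1.5 times the value reported and 87 did not. The genes most like each member depended on the measure: 3 of the 8 for RGI1 and 2 of the 8 for RGI2 were shared when r was taken over group means, 2 and 2 by root mean square difference, 4 and 4 by Spearman rho, and 4 and 5 without both weakly controlled arrays.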
